A study of Homo sapiens with 14 samples.

Results

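RNA levels of 31 genes of cholesterol and fatty acid synthesis were examined in MDA-MB-231 cells, an established human triple-negative breast cancer line, and in lines made from it by CRISPR/Cas9. The genes were found by their symbols in the deposited table of 19410 genes, and all 31 were present. They were 7 genes of the mevalonate steps, 10 of the squalene and sterol steps, 5 of sterol sensing and transport, and 9 of fatty acid synthesis. RNA-Seq libraries were made in 2 replicates from parental cells and from SAP30-KO1, SAP30-KO2, SIN3A+SIN3B-DKO1, SIN3A+SIN3B-DKO2, MLL1-KO1, and MLL1-KO2, which makes 14 libraries. The SAP30-KO lines carry a knockout of SAP30, a subunit of the SIN3 corepressor complex, the SIN3A+SIN3B-DKO lines a double knockout of its scaffold genes SIN3A and SIN3B, and the MLL1-KO lines a knockout of MLL1, a histone methyltransferase gene listed in the table as MLL. Apart from the making of the lines, all groups, parental included, were untreated and grown in the same serum-containing medium. In that making, edited cells received sgRNA vector and were selected with puromycin, steps not described for parental cells. Whether this handling bears on the differences from parental cells was not tested. Per the study's methods, several single knockout cells were selected, expanded, and mixed for each line, so a line is a mix of clones. Line names throughout are those of the labels. Nothing in the labels says that the replicates of a line came from separate cultures, so p-values measure the spread between these libraries, which may be technical.

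Cells make cholesterol from acetyl-CoA by way of mevalonate and squalene, and make fatty acids from the same acetyl-CoA by way of malonyl-CoA. Transcription factors of the SREBP family, encoded by SREBF1 and SREBF2, are carried by SCAP to the Golgi and activated there when membrane sterol is low, while INSIG1 holds them back when it is high, and most genes of both pathways carry SREBP sites in their promoters. Cancer cells often run these pathways at a high rate to build membranes, and serum lipids in the medium dampen them.

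Values are in TPM (transcripts scaled to a fixed total in each library), which correct for gene length and for depth, so that levels of different genes can be set side by side. Libraries held from 18415036 to 23162682 reads recovered from the values, and each of the 31 genes had from 56 to 65315 reads in a library. Of 19410 genes, 13540 had at least 1 TPM in at least 2 libraries and were tested, all 31 among them. Changes are log2 differences of TPM + 0.5, which understates the change of low genes. A gene was called higher or lower when its Benjamini-Hochberg adjusted p over all genes tested, from limma, was under 0.05 and its change was at least 1.5-fold. All lines were compared with the same 2 parental libraries, so the 6 comparisons are not independent of each other. SAP30 was at 78.9 and 82.8 TPM in the parental libraries and from 2.75 to 4.96 TPM in the SAP30-KO libraries. SIN3B was called lower in SIN3A+SIN3B-DKO1 and SIN3A+SIN3B-DKO2, with log2 changes of -0.61 and -0.71, while SIN3A was at 55.1 to 62.5 TPM in these libraries against 43.1 and 45.4 in the parental ones. A frameshift can leave RNA in place, so the RNA level of SIN3A does not check its label. MLL was called lower in MLL1-KO1 and MLL1-KO2, with log2 changes of -1.64 and -0.97, and also in SAP30-KO1 and SAP30-KO2, with -0.95 and -0.65. The genes around MLL on its chromosome were lower too, with median changes from -0.95 to -0.21 over the 6 lines. When the change of these neighbours was subtracted, as described below, MLL was called lower in only 1 line. As markers of this mesenchymal-like, receptor-negative line, VIM was from 5741 to 8805 TPM and CD44 from 267 to 611 TPM, while ESR1, PGR, and CDH1 were at or under 1.25 TPM in every library. CDH1 was at 1.07 and 1.25 TPM in the parental libraries and at most 0.282 TPM in the edited ones, and was called lower in all 6 lines. PGR was above 0 only in the parental libraries, at 0.139 and 0.0657 TPM. CD44 was called higher in 2 lines and VIM in 1. Whether these differences bear on the comparisons with parental cells was not tested.

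From 2 to 14 of the 31 genes were called lower in a line, the most of them in MLL1-KO2, and 13 were called in no line. In MLL1-KO2, 14 of the 31 genes were called lower, or 45.2%, where 14.9% of all genes tested were, and 0 were called higher, where 10.2% of all genes were. With 0 higher calls, 3 genes had a positive change at an unadjusted p under 0.05, and voom on the recovered reads also called 0. In MLL1-KO1, 8 genes were called lower, or 25.8% against 16.3% of all genes, and 1 higher, against 6.89% of all genes. SAP30-KO1 had 5 genes called lower, or 16.1% against 7.86%, and 1 higher, against 7.8%. SAP30-KO2 had 4 lower, or 12.9% against 8.12%, and 1 higher, against 7.44%, a call that was lost without parental replicate 1 or SAP30-KO2 replicate 1. SIN3A+SIN3B-DKO2 had 5 lower, or 16.1% against 7.56%, and 1 higher, against 6.0%, and without replicate 1 of that line 8 were lower. In SIN3A+SIN3B-DKO1 only 2 were called lower, or 6.5%, which is near the 8.66% of all genes, and 1 higher, against 7.76%. The share of higher calls was below that of all genes in each of the 6 lines. The 31 genes were chosen with earlier results of these data known, so these shares describe them and are not an independent test. In these bulk libraries fewer cells that use the pathways and less RNA per cell cannot be told apart.

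The median log2 change of the 31 genes was -0.27 in SAP30-KO1, -0.15 in SAP30-KO2, -0.19 in SIN3A+SIN3B-DKO1, -0.33 in SIN3A+SIN3B-DKO2, -0.34 in MLL1-KO1, and -0.55 in MLL1-KO2. Over all genes tested the medians were 0.03, 0.01, 0.00, 0.01, -0.09, and -0.04, in the same order. A change below 0, called or not, was found for 64.5%, 58.1%, 74.2%, 80.6%, 74.2%, and 83.9% of the 31 genes, against 45.4%, 47.6%, 49.7%, 48.2%, 59.2%, and 54.0% of all genes tested, again in that order. Of 186 gene and line pairs, 38 were called lower and 5 higher, and all 5 higher calls were of NSDHL. Under quantile normalization the median of all genes moved by 0.13 in MLL1-KO1, and there the calls over all genes went from 2210 lower and 933 higher to 1545 lower and 1451 higher, while in MLL1-KO2 they went from 2021 and 1387 to 1680 and 1788. The median of the 31 genes under that scaling was -0.31 for MLL1-KO1 and -0.53 for MLL1-KO2. In 16 of the 31 genes all 12 edited libraries lay below both parental libraries, which held for 14.5% of all genes tested, and in 1 gene, NSDHL, all 12 lay above both, which held for 10.5%.

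**Figure D1:**
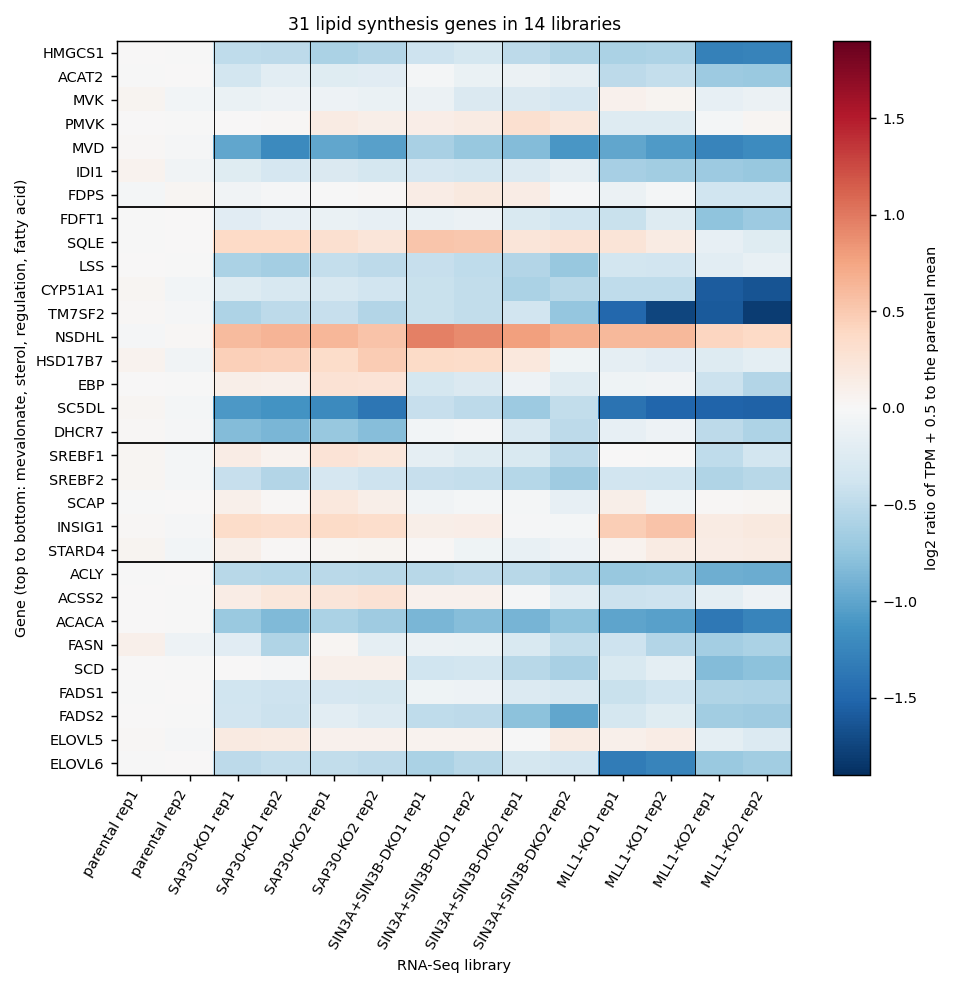
Heat map of the 31 genes (rows, grouped by pathway step) in the 14 libraries (columns), coloured by the log2 ratio of TPM + 0.5 to the parental mean, blue for lower and red for higher. MVD, SC5DL, ACACA, and ACLY are blue in all 12 edited libraries, NSDHL is red in all 12, and the darkest blue cells are in the MLL1-KO columns.

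Because some genes moved together with the genes around them on the chromosome, the median change of the 51 tested genes centred on each gene is given beside it and called the neighbour median. Positions are those of hg19 (GRCh37) with the GENCODE annotation lifted to that build. When the running neighbour median was subtracted in every library and the fit repeated over 12988 genes with a position, 18 of the 186 pairs were called lower and 0 higher. By line these were 1 lower in SAP30-KO1 (3.23% of the 31, against 5.94% of all genes with a position), 0 in SAP30-KO2 (against 6.0%), 1 in SIN3A+SIN3B-DKO1 (3.23% against 7.15%), 4 in SIN3A+SIN3B-DKO2 (12.9% against 6.9%), 2 in MLL1-KO1 (6.45% against 11.1%), and 10 in MLL1-KO2 (32.3% against 11.2%). After subtraction the 31 genes were thus called lower less often than all genes in 4 lines, where the difference in share was not tested, and the excess of lower calls seen before it in SAP30-KO1, SAP30-KO2, and MLL1-KO1 was no longer found. Higher calls were 0 in each line, against 5.26%, 5.42%, 5.98%, 4.16%, 7.29%, and 9.79% of all genes. The medians of the 31 genes were then -0.10, -0.07, -0.17, -0.29, -0.23, and -0.53, in the same order. Of the 5 genes called lower in SAP30-KO1 only MVD was called after subtraction, whereas in MLL1-KO2 it was 10 of the 14. Subtraction also removes any regulation that neighbouring genes share, and the part of chromosomal regions in these results was not tested beyond it.

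**Figure D2:**
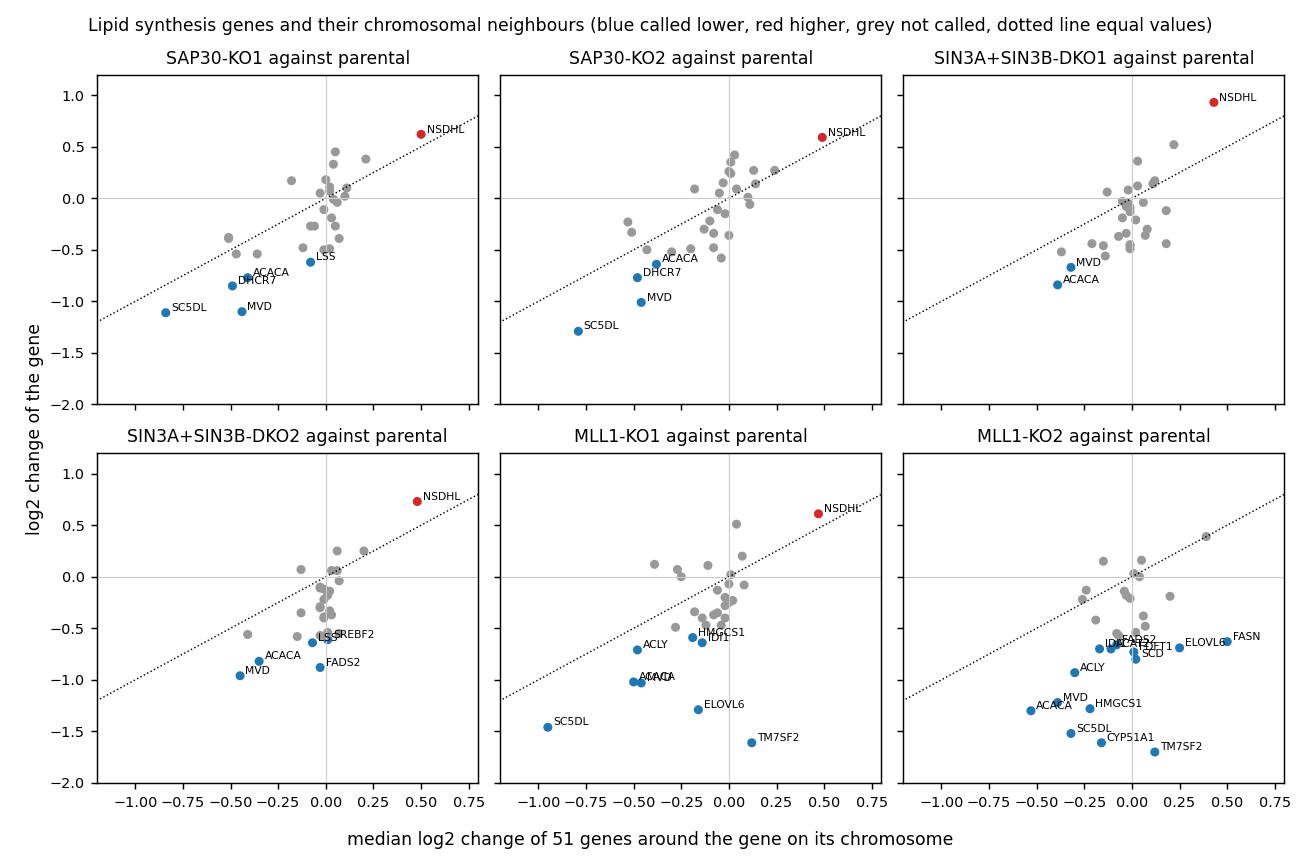
Log2 change from parental of each of the 31 genes (vertical axis) against the median log2 change of 51 genes around it on the chromosome (horizontal axis), 1 panel for each line, with called genes in blue (lower) or red (higher), the others in grey, and equal values on the dotted line. NSDHL lies on the dotted line in MLL1-KO2 and close to it in SAP30-KO2, SC5DL has neighbour medians down to -0.95, and TM7SF2 and CYP51A1 in MLL1-KO2 lie far below the line.

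Promoters were read for the genes on which the results turn, to show what sequence stands before their start sites. RefSeq windows of GRCh38.p14, a later build than that of the values, were found for 27 of the 31 genes. Where a gene had more than 1 window, only the first listed was read. The share of all windows counts every window of every gene, so the 2 shares are not on the same basis. Both strands were searched for the sterol regulatory element TCACNCCAC, the NF-Y box CCAAT, and the E-box CACGTG, and none of these motifs contains another. A CCAAT box was in 18 of the 27 windows of 300 bases, or 66.7%, against 34.6% of all 35093 windows. CACGTG was in 5, or 18.5%, against 7.3%. The element TCACNCCAC in these exact letters was in 1, that of SREBF2, against 1.1%, and other forms of the element were not searched. The 250 bases before the start are printed 5′ to 3′ on the strand of the gene, in lower case, with matches in capitals to CCAAT on either strand, where the other strand reads ATTGG, or to the sterol element. MVD is shown for its lower level in all 6 lines, HMGCS1, CYP51A1, and TM7SF2 for the MLL1-KO lines, SREBF2 as the sterol factor itself, and NSDHL as the 1 gene that was higher.
MVD, chr16:88663092-88663341, minus strand: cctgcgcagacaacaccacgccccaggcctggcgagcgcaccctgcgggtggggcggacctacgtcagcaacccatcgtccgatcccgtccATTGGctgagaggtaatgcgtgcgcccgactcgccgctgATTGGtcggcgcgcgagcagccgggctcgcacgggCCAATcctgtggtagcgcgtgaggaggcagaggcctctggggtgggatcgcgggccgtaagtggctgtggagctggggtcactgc
HMGCS1, chr5:43313413-43313662, minus strand: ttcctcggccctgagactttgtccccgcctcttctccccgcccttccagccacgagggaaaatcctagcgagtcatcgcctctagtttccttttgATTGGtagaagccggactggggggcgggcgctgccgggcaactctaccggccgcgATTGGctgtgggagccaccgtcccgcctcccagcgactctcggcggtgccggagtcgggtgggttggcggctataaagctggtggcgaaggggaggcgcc
CYP51A1, chr7:92134478-92134727, minus strand: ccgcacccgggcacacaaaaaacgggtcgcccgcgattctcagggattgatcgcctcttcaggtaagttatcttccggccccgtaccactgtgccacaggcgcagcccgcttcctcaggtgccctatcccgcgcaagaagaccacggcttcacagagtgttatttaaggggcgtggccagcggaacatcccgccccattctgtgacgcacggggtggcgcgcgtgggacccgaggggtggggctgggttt
TM7SF2, chr11:65111622-65111871, plus strand: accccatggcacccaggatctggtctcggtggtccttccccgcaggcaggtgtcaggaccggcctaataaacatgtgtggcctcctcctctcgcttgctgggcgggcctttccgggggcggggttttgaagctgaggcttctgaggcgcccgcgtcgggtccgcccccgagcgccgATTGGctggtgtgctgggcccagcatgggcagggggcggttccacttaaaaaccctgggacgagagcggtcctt
SREBF2, chr22:41832855-41833104, plus strand: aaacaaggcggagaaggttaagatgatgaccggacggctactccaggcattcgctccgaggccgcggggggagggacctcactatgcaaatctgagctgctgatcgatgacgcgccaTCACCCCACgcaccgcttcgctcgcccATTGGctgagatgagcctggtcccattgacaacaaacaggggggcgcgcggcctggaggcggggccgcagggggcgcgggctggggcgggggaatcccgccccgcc
NSDHL, chrX:152830813-152831062, plus strand: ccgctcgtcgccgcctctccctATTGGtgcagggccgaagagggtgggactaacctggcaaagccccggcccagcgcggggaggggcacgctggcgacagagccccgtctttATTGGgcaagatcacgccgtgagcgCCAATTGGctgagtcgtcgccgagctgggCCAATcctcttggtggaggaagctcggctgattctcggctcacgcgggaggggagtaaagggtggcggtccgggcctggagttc
MVD has 3 CCAAT matches, HMGCS1 2, TM7SF2 1, SREBF2 1, and NSDHL 5, of which a pair overlap, and CYP51A1 has 0 of the 3 motifs in its window. These 6 genes were picked by their levels, and a relation between matches and direction of change was not tested. MVK also had 5 CCAAT matches and was called in no line. Of the other genes with 0 CCAAT matches, ACACA, IDI1, FADS2, and ELOVL6 were called lower in at least 1 line. PMVK, SREBF1, SCAP, and FADS1, also with 0, were called in no line. A match is a description of letters and says nothing of which factor binds.

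The mevalonate steps had 1 gene of 7 called lower in each SAP30-KO and SIN3A+SIN3B-DKO line, which was MVD each time, 3 in MLL1-KO1, and 4 in MLL1-KO2. The first of these steps joins acetyl-CoA units, and the last supplies the prenyl diphosphates from which sterols and many other isoprenoids are built. The calls were 14.3% of the 7 genes in each SAP30-KO and SIN3A+SIN3B-DKO line, against 7.56% to 8.66% of all genes. In MLL1-KO1 and MLL1-KO2 they were 42.9% and 57.1%, against 16.3% and 14.9%. With neighbours subtracted, lower calls were 1 in SAP30-KO1, 2 in MLL1-KO2, and 0 in the other lines.

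MVD (chr16:88718343-88729569) encodes mevalonate diphosphate decarboxylase, which makes isopentenyl diphosphate. It was at 73.9 and 72.1 TPM in parental cells, with 36.5 and 31.2 for SAP30-KO1, 36.4 and 35.5 for SAP30-KO2, 47.3 and 44 for SIN3A+SIN3B-DKO1, 41.2 and 33.7 for SIN3A+SIN3B-DKO2, 36.5 and 34.3 for MLL1-KO1, and 30.4 and 31.6 for MLL1-KO2. Every edited library was below both parental ones, SIN3A+SIN3B-DKO1 was the nearest to them, and the other lines overlapped in part. Log2 changes from parental were -1.10 in SAP30-KO1, -1.01 in SAP30-KO2, -0.67 in SIN3A+SIN3B-DKO1, -0.96 in SIN3A+SIN3B-DKO2, -1.03 in MLL1-KO1, and -1.22 in MLL1-KO2 (SE 0.092 in each), and all 6 were called, with adjusted p from 0.00011 in SIN3A+SIN3B-DKO1 to 6.1e-07 in MLL1-KO2. MVD was 2.33-fold lower in MLL1-KO2 and 1.59-fold lower in SIN3A+SIN3B-DKO1. Its neighbour medians on chromosome 16 were from -0.46 to -0.32, and with neighbours subtracted MVD was called lower in SAP30-KO1 and MLL1-KO2, with changes of -0.63 and -0.80.

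HMGCS1 (chr5:43287572-43313614) encodes the cytosolic synthase that makes HMG-CoA, the precursor of mevalonate. It was at 81.2 and 80.3 TPM in parental cells, with 57.6 and 57.1 for SAP30-KO1, 53.1 and 55 for SAP30-KO2, 61.3 and 63.7 for SIN3A+SIN3B-DKO1, 56.8 and 54.2 for SIN3A+SIN3B-DKO2, 53.1 and 53.5 for MLL1-KO1, and 32.8 and 33.2 for MLL1-KO2. All edited lines lay below parental cells, and MLL1-KO2 lay apart below the rest, with no overlap. In MLL1-KO2 HMGCS1 was 2.42-fold lower (log2 change -1.28, SE 0.038, adjusted p = 3.8e-10), and with a neighbour median of -0.22 subtracted the change was -1.05 and still called. In MLL1-KO1 the change was -0.59, or 1.51-fold, just past the fold minimum, and the call was lost under quantile normalization, median-ratio scaling, voom, and neighbour subtraction. In the other lines log2 changes were from -0.58 to -0.37, with adjusted p at or under 1.4e-05 but under 1.5-fold.

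ACAT2 (chr6:160183077-160200144) encodes the cytosolic thiolase that opens the pathway. It was at 302 and 304 TPM in parental cells, with 239 and 263 for SAP30-KO1, 258 and 262 for SAP30-KO2, 294 and 279 for SIN3A+SIN3B-DKO1, 281 and 268 for SIN3A+SIN3B-DKO2, 214 and 222 for MLL1-KO1, and 188 and 185 for MLL1-KO2. Both MLL1-KO lines were below all other libraries, and the remaining lines were closer to parental cells. ACAT2 was called lower in MLL1-KO2 only, by 1.62-fold (log2 change -0.70, SE 0.045, adjusted p = 1.8e-07), and the difference between MLL1-KO2 and MLL1-KO1 was -0.23, which was not called. With neighbours subtracted the change in MLL1-KO2 was -0.57 and no longer called. Part of its exons overlaps those of TCP1 on the opposite strand, and whether the counting used strand is not given in the sources used here.

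IDI1 (chr10:1085092-1095059), the isomerase that makes dimethylallyl diphosphate, was at 217 and 197 TPM in parental cells, with 176 and 166 for SAP30-KO1, 171 and 164 for SAP30-KO2, 165 and 162 for SIN3A+SIN3B-DKO1, 172 and 184 for SIN3A+SIN3B-DKO2, 134 and 131 for MLL1-KO1, and 128 and 126 for MLL1-KO2. The MLL1-KO libraries lay below all others. IDI1 was called lower in MLL1-KO1 (log2 change -0.64, SE 0.050, adjusted p = 8.8e-07) and in MLL1-KO2 (-0.70, adjusted p = 4e-07), and in MLL1-KO1 without parental replicate 1 the change was -0.57 and not called. With neighbours subtracted both IDI1 calls were lost, at -0.54 and -0.53. The annotation holds pseudogene copies of IDI1, and how reads shared with them were counted is not given in the sources used here, so its level is uncertain to that extent.

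The other 3 genes of these steps were called in no line. MVK and PMVK, the kinases that act on mevalonate in turn, ranged from 45.6 to 60.6 TPM and from 48.9 to 71.7 TPM over the 14 libraries, with log2 changes from -0.30 to 0.07 and from -0.25 to 0.25. FDPS, farnesyl diphosphate synthase, ranged from 328 to 488 TPM, with changes from -0.38 to 0.17 and its lowest level in MLL1-KO2, and it also has pseudogene copies.

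The squalene and sterol steps had 3 of 10 genes called lower in SAP30-KO1, 2 in SAP30-KO2, 0 in SIN3A+SIN3B-DKO1, 1 in SIN3A+SIN3B-DKO2, 2 in MLL1-KO1, and 4 in MLL1-KO2. The genes called differed between genotypes, with SC5DL and DHCR7 in both SAP30-KO lines and TM7SF2 and SC5DL in both MLL1-KO lines. NSDHL was called higher in 5 lines. In the order above, lower calls were 30%, 20%, 0%, 10%, 20%, and 40% of the 10 genes. Over all genes they were 7.86%, 8.12%, 8.66%, 7.56%, 16.3%, and 14.9%. With neighbours subtracted there were 0, 0, 1, 1, 1, and 4 lower calls, so none was left in the SAP30-KO lines.

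FDFT1, which encodes squalene synthase at the branch point to sterols, was at 329 and 333 TPM in parental cells, with 286 and 296 for SAP30-KO1, 302 and 296 for SAP30-KO2, 300.2 and 306 for SIN3A+SIN3B-DKO1, 272 and 254 for SIN3A+SIN3B-DKO2, 246 and 279 for MLL1-KO1, and 195 and 205 for MLL1-KO2. MLL1-KO2 had the lowest libraries, under all others. A lower call was made there, by 1.66-fold (log2 change -0.73, SE 0.055, adjusted p = 6.1e-07), with a neighbour median of 0.01. SQLE, squalene epoxidase, was in contrast above parental cells in 10 of the 12 edited libraries, at 58.2 to 98.4 TPM against 67.8 and 69.0, and was called in no line, with log2 changes from -0.19 to 0.52.

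LSS (chr21:47608055-47648738), which closes squalene epoxide into lanosterol, was at 90 and 88.2 TPM in parental cells, with 58.8 and 56.5 for SAP30-KO1, 64.7 and 62.7 for SAP30-KO2, 65.5 and 63.5 for SIN3A+SIN3B-DKO1, 60.5 and 54 for SIN3A+SIN3B-DKO2, 70 and 69.4 for MLL1-KO1, and 77.4 and 80.4 for MLL1-KO2. All edited lines were below parental cells, and MLL1-KO2 was the nearest to them. LSS was called lower in SAP30-KO1 (log2 change -0.62, SE 0.051, adjusted p = 2.7e-06) and in SIN3A+SIN3B-DKO2 (-0.64, adjusted p = 2.8e-06), at 1.54-fold and 1.55-fold. Without SIN3A+SIN3B-DKO2 replicate 2 the change there was -0.56 and not called. With neighbours subtracted neither line was called, at -0.52 and -0.55.

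CYP51A1 (chr7:91714301-91764117), the lanosterol demethylase, was at 184 and 173 TPM in parental cells, with 151 and 144 for SAP30-KO1, 144 and 139 for SAP30-KO2, 133 and 129 for SIN3A+SIN3B-DKO1, 117 and 124 for SIN3A+SIN3B-DKO2, 127 and 127 for MLL1-KO1, and 59.6 and 56.8 for MLL1-KO2. Both MLL1-KO2 libraries were at or below 59.6 TPM, and every other library was at 117 TPM or more. The 3.05-fold lower level in MLL1-KO2 (log2 change -1.61, SE 0.045, adjusted p = 2.6e-10) stood beside 1.40-fold in MLL1-KO1 (-0.49), and the direct difference between the 2 MLL1-KO lines was -1.12 (adjusted p = 3.3e-08). With neighbours subtracted the change in MLL1-KO2 was -1.40. The gene has pseudogene copies, which may take or give reads.

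TM7SF2 (chr11:64879317-64883856), a sterol reductase, had the lowest level of the 31 genes. It was at 18.7 and 18.3 TPM in parental cells, with 12.1 and 13 for SAP30-KO1, 13.5 and 12.4 for SAP30-KO2, 13.7 and 13.2 for SIN3A+SIN3B-DKO1, 14.2 and 10.9 for SIN3A+SIN3B-DKO2, 6.26 and 5.18 for MLL1-KO1, and 5.77 and 4.92 for MLL1-KO2. The 4 MLL1-KO libraries were at or below 6.26 TPM and all others at 10.9 TPM or more. TM7SF2 was called lower in both MLL1-KO lines, by 3.06-fold in MLL1-KO1 (log2 change -1.61, SE 0.13, adjusted p = 9e-07) and by 3.26-fold in MLL1-KO2 (-1.70, adjusted p = 5.3e-07), where the neighbour median was 0.12 in each. In the SAP30-KO lines the changes were -0.54 and -0.50 with neighbour medians of -0.47 and -0.43, and neither was called. In SIN3A+SIN3B-DKO1 and SIN3A+SIN3B-DKO2 they were -0.44 and -0.55 and not called, and with neighbours subtracted -0.62 and -0.63 and called. Its lowest library held 56 reads, so its values are the least precise of the 31.

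NSDHL (chrX:151999511-152038273), a sterol dehydrogenase on the X chromosome, was the 1 gene called higher. It was at 74.8 and 76.9 TPM in parental cells, with 115 and 119 for SAP30-KO1, 118 and 111 for SAP30-KO2, 148 and 142 for SIN3A+SIN3B-DKO1, 131 and 121 for SIN3A+SIN3B-DKO2, 116 and 116 for MLL1-KO1, and 101 and 98.6 for MLL1-KO2. All edited libraries were above both parental ones, with SIN3A+SIN3B-DKO1 the highest and MLL1-KO2 the nearest to parental cells. Log2 changes were 0.62 in SAP30-KO1, 0.59 in SAP30-KO2, 0.93 in SIN3A+SIN3B-DKO1, 0.73 in SIN3A+SIN3B-DKO2, 0.61 in MLL1-KO1, and 0.39 in MLL1-KO2 (SE 0.046 in each), and all but the last were called, with adjusted p from 1.8e-06 in SAP30-KO2 to 8e-08 in SIN3A+SIN3B-DKO1. Neighbour medians were from 0.39 to 0.50, and with neighbours subtracted the changes were from -0.05 to 0.49 and none was called. In SAP30-KO2, where the change was 1.5-fold, the call was also lost under a pseudocount of 1, median-ratio scaling, and without parental replicate 1 or SAP30-KO2 replicate 1, and that in SAP30-KO1 was lost under median-ratio scaling too.

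SC5DL (chr11:121163390-121184119), the sterol desaturase now called SC5D, was at 31.8 and 30.3 TPM in parental cells, with 14.3 and 13.9 for SAP30-KO1, 13.1 and 11.7 for SAP30-KO2, 22.9 and 21.9 for SIN3A+SIN3B-DKO1, 19 and 22.4 for SIN3A+SIN3B-DKO2, 11.4 and 10.6 for MLL1-KO1, and 10.5 and 10.4 for MLL1-KO2. SAP30-KO and MLL1-KO libraries were all at or below 14.3 TPM, and the SIN3A+SIN3B-DKO libraries lay between them and parental cells. It was called lower in SAP30-KO1 (log2 change -1.11, SE 0.083, adjusted p = 1.3e-06), SAP30-KO2 (-1.29, adjusted p = 4.2e-07), MLL1-KO1 (-1.46, adjusted p = 7.1e-08), and MLL1-KO2 (-1.52, adjusted p = 4.5e-08). The genes around it on chromosome 11 had medians of -0.84, -0.79, -0.95, and -0.32 in these lines. With neighbours subtracted it was called in MLL1-KO2 only, with -1.15. MLL lies on the same arm, and its own neighbour medians were -0.91 in SAP30-KO1, -0.85 in SAP30-KO2, -0.95 in MLL1-KO1, and -0.42 in MLL1-KO2.

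DHCR7 (chr11:71139239-71163914), the reductase that yields cholesterol, was at 192 and 188 TPM in parental cells, with 107 and 104 for SAP30-KO1, 115 and 108 for SAP30-KO2, 183 and 187 for SIN3A+SIN3B-DKO1, 154 and 134 for SIN3A+SIN3B-DKO2, 170 and 177 for MLL1-KO1, and 135 and 126 for MLL1-KO2. The SAP30-KO libraries were the lowest, with no overlap with any other line, and SIN3A+SIN3B-DKO1 was the nearest to parental cells. DHCR7 was called lower in SAP30-KO1 (log2 change -0.85, SE 0.060, adjusted p = 8.9e-07) and SAP30-KO2 (-0.77, adjusted p = 1.8e-06), with neighbour medians of -0.49 and -0.48, and neither call was kept with neighbours subtracted. HSD17B7 (chr1:162760492-162782613), a keto-sterol reductase with pseudogene copies, was at 28.6 and 25.9 TPM in parental cells, with 37.4 and 37.2 for SAP30-KO1, 35 and 38.2 for SAP30-KO2, 35.3 and 34.8 for SIN3A+SIN3B-DKO1, 31.5 and 25.6 for SIN3A+SIN3B-DKO2, 24.1 and 23.4 for MLL1-KO1, and 22.9 and 23.9 for MLL1-KO2. SAP30-KO libraries were above parental ones and MLL1-KO libraries below, and no line was called, with log2 changes from -0.21 to 0.45. EBP, a sterol isomerase, ranged from 73.4 to 131 TPM, with changes from -0.48 to 0.27 and no call.

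**Figure D3:**
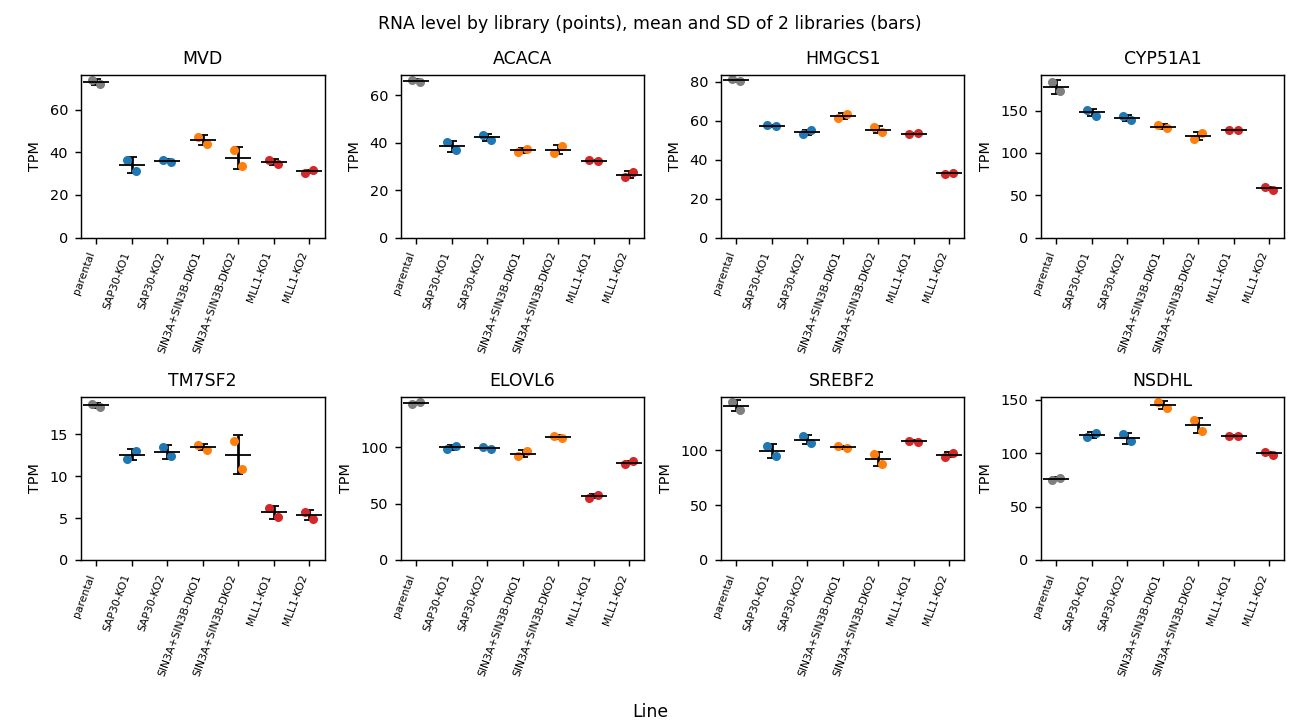
TPM of 8 genes in each line, with the 2 libraries as points and their mean and SD as bars, on axes that start at 0. MVD and ACACA are below parental cells in every line, HMGCS1 and CYP51A1 are lowest in MLL1-KO2, TM7SF2 is lowest in both MLL1-KO lines, ELOVL6 is lowest in MLL1-KO1, and NSDHL is above parental cells throughout.

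Among the 5 genes of sterol sensing and transport, 1 was called in 1 line, and their medians were from -0.12 to 0.15 over the 6 lines. That line was SIN3A+SIN3B-DKO2, where 7.56% of all genes were called lower. SREBF2 (chr22:42229109-42303310), whose SREBP acts mainly on cholesterol genes, was at 144 and 137 TPM in parental cells, with 104 and 95.3 for SAP30-KO1, 113 and 107 for SAP30-KO2, 104 and 102 for SIN3A+SIN3B-DKO1, 96.4 and 87.5 for SIN3A+SIN3B-DKO2, 109 and 108 for MLL1-KO1, and 94.5 and 97.6 for MLL1-KO2. All 12 edited libraries were below both parental ones. Its log2 changes were -0.50 in SAP30-KO1, -0.36 in SAP30-KO2, -0.45 in SIN3A+SIN3B-DKO1, -0.61 in SIN3A+SIN3B-DKO2, -0.37 in MLL1-KO1, and -0.55 in MLL1-KO2 (SE 0.055 in each), of which that in SIN3A+SIN3B-DKO2 was called (adjusted p = 6.2e-06, 1.53-fold) and the others had adjusted p at or under 0.00026 but less than 1.5-fold. Without parental replicate 1 or SIN3A+SIN3B-DKO2 replicate 2 that call was lost, at -0.58 and -0.54. Neighbour medians were from -0.08 to 0.01.

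SREBF1 (chr17:17713713-17740316), whose SREBP acts more on fatty acid genes, was at 88 and 84 TPM in parental cells, with 95.3 and 90.3 for SAP30-KO1, 103 and 99.9 for SAP30-KO2, 76.1 and 72.5 for SIN3A+SIN3B-DKO1, 70.4 and 61 for SIN3A+SIN3B-DKO2, 86.5 and 85.8 for MLL1-KO1, and 61.6 and 67.1 for MLL1-KO2. SAP30-KO libraries were above parental ones, and SIN3A+SIN3B-DKO and MLL1-KO2 libraries below. No change was called, and they ran from -0.42 in MLL1-KO2 to 0.24 in SAP30-KO2 (SE 0.066). SCAP (chr3:47455171-47518616), the escort protein, was at 64.6 and 65.7 TPM in parental cells, with 69.4 and 65.9 for SAP30-KO1, 74.9 and 70.2 for SAP30-KO2, 62.4 and 63.4 for SIN3A+SIN3B-DKO1, 63.2 and 58.6 for SIN3A+SIN3B-DKO2, 70.1 and 62.1 for MLL1-KO1, and 66.3 and 66.9 for MLL1-KO2. The MLL1-KO1 libraries lay on both sides of the parental ones, and no line was far from them, with log2 changes from -0.10 to 0.15 (SE 0.059) and adjusted p from 0.051 to 0.81.

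INSIG1 (chr7:155089486-155101945), which retains SCAP and is itself a sterol-responsive target, was at 175 and 169 TPM in parental cells, with 219.6 and 214 for SAP30-KO1, 222 and 217 for SAP30-KO2, 186 and 188 for SIN3A+SIN3B-DKO1, 169 and 167 for SIN3A+SIN3B-DKO2, 239 and 251 for MLL1-KO1, and 191 and 195 for MLL1-KO2. All lines but SIN3A+SIN3B-DKO2 were above both parental libraries, and MLL1-KO1 was the highest. The largest change was 0.51 in MLL1-KO1 (SE 0.032, adjusted p = 1.8e-07), at 1.42-fold and so not called, and under median-ratio scaling it was 0.60 and called higher. STARD4, a sterol carrier, ranged from 71.7 to 88.3 TPM, with changes from -0.12 to 0.15. In MLL1-KO1 INSIG1 was at a higher mean level than in parental cells, while HMGCS1, IDI1, and MVD were called lower in the same libraries. With neighbours subtracted, 0 genes of the mevalonate steps were called lower in MLL1-KO1. The HMGCS1 call was also lost under quantile normalization, median-ratio scaling, and voom, and that of IDI1 without parental replicate 1. Lower calls among the 31 genes in MLL1-KO1 were 6 under median-ratio scaling and 6 under voom, against 8 in the main fit.

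Fatty acid synthesis had 1 gene of 9 called lower in SAP30-KO1, SAP30-KO2, and SIN3A+SIN3B-DKO1, which was ACACA each time, 2 in SIN3A+SIN3B-DKO2, 3 in MLL1-KO1, and 6 in MLL1-KO2. The median log2 change of the 9 genes was lowest in MLL1-KO2, at -0.66, against -0.40 for MLL1-KO1. Its genes make acetyl-CoA in the cytosol, build palmitate from it, and then lengthen and desaturate the chain. In the order above, lower calls were 11.1%, 11.1%, 11.1%, 22.2%, 33.3%, and 66.7% of the 9 genes. Over all genes they were 7.86%, 8.12%, 8.66%, 7.56%, 16.3%, and 14.9%. With neighbours subtracted there were 0, 0, 0, 2, 1, and 4 lower calls.

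ACACA (chr17:35441927-35766927) encodes acetyl-CoA carboxylase, which makes malonyl-CoA and sets the pace of fatty acid synthesis. It was at 66.5 and 65.6 TPM in parental cells, with 40.2 and 36.8 for SAP30-KO1, 43.4 and 41.2 for SAP30-KO2, 36 and 37.5 for SIN3A+SIN3B-DKO1, 35.7 and 38.5 for SIN3A+SIN3B-DKO2, 32.6 and 32.2 for MLL1-KO1, and 25.4 and 27.5 for MLL1-KO2. All edited libraries were well below parental ones, and MLL1-KO2 was the lowest. Log2 changes were -0.77 in SAP30-KO1, -0.64 in SAP30-KO2, -0.84 in SIN3A+SIN3B-DKO1, -0.82 in SIN3A+SIN3B-DKO2, -1.02 in MLL1-KO1, and -1.30 in MLL1-KO2 (SE 0.059 in each), and all 6 were called, with adjusted p from 6.5e-06 in SAP30-KO2 to 1.1e-08 in MLL1-KO2, where it was 2.47-fold lower. Its neighbour medians on chromosome 17 were from -0.53 to -0.35, and with neighbours subtracted the call was kept in MLL1-KO2 only, at -0.78.

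ACLY (chr17:40023170-40086795), which makes cytosolic acetyl-CoA from citrate, was at 436 and 438 TPM in parental cells, with 304 and 299 for SAP30-KO1, 307 and 303 for SAP30-KO2, 302 and 308 for SIN3A+SIN3B-DKO1, 304 and 287 for SIN3A+SIN3B-DKO2, 265 and 268 for MLL1-KO1, and 229 and 228 for MLL1-KO2. Every edited library was below both parental ones. It was called lower in MLL1-KO1 (log2 change -0.71, SE 0.030, adjusted p = 7.2e-09) and MLL1-KO2 (-0.93, adjusted p = 6.7e-10), and in the other lines changes were from -0.56 to -0.52 and short of 1.5-fold. Neighbour medians were from -0.48 to -0.30, and with neighbours subtracted no line was called. ACSS2, which makes acetyl-CoA from acetate, ranged from 43.2 to 69.7 TPM, with changes from -0.40 to 0.26 and no call.

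FASN (chr17:80036214-80056170), fatty acid synthase, was at 346 and 303 TPM in parental cells, with 279 and 218 for SAP30-KO1, 332 and 289 for SAP30-KO2, 300.4 and 297 for SIN3A+SIN3B-DKO1, 266 and 235 for SIN3A+SIN3B-DKO2, 247 and 221 for MLL1-KO1, and 207 and 213 for MLL1-KO2. The parental libraries differed from each other, and those of SAP30-KO2 overlapped with them. It was called lower in MLL1-KO2 (log2 change -0.63, SE 0.11, adjusted p = 0.00061), where its neighbours had a median of 0.50, and with neighbours subtracted the change was -1.12. Without parental replicate 1 it was -0.53 and not called, and under quantile normalization or median-ratio scaling -0.58 and not called.

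SCD (chr10:102106990-102124583), the desaturase that makes monounsaturated fatty acids, had the highest level of the 31 genes and a pseudogene copy. It was at 1348 and 1339 TPM in parental cells, with 1351 and 1323 for SAP30-KO1, 1429.6 and 1439 for SAP30-KO2, 1034 and 1056 for SIN3A+SIN3B-DKO1, 929 and 874 for SIN3A+SIN3B-DKO2, 1102 and 1187 for MLL1-KO1, and 761 and 783 for MLL1-KO2. SAP30-KO1 overlapped with the parental libraries, SAP30-KO2 was above them, and MLL1-KO2 and SIN3A+SIN3B-DKO2 were the lowest. It was called lower in MLL1-KO2, by 1.74-fold (log2 change -0.80, SE 0.038, adjusted p = 1.7e-08), with a neighbour median of 0.02. In SIN3A+SIN3B-DKO2 the change was -0.58, at 1.49-fold and so not called, and with neighbours subtracted it was -0.63 and called.

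FADS2 (chr11:61560452-61634826), a desaturase of polyunsaturated fatty acids, was at 664 and 654 TPM in parental cells, with 511 and 499 for SAP30-KO1, 571 and 550.1 for SAP30-KO2, 472 and 469 for SIN3A+SIN3B-DKO1, 383 and 332 for SIN3A+SIN3B-DKO2, 522 and 560.1 for MLL1-KO1, and 418 and 414 for MLL1-KO2. The lowest libraries were those of SIN3A+SIN3B-DKO2, and all edited ones were below parental cells. FADS2 was called lower in SIN3A+SIN3B-DKO2 (log2 change -0.88, SE 0.056, adjusted p = 5e-07) and MLL1-KO2 (-0.66, adjusted p = 1.6e-06), and with neighbours subtracted the call was kept in the first (-0.89) and lost in the second (-0.58). FADS1, the neighbouring desaturase on the opposite strand, ranged from 237 to 357 TPM, with changes from -0.57 to -0.09 and no call. Exons of FADS1 and FADS2 overlap in part, so some of their reads may not be told apart, and in the SAP30-KO lines the genes around both had medians from -0.53 to -0.51.

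ELOVL6 (chr4:110967002-111120355), the elongase that extends palmitate, was at 138 and 140 TPM in parental cells, with 97.9 and 101 for SAP30-KO1, 99.9 and 98.5 for SAP30-KO2, 91.9 and 96.3 for SIN3A+SIN3B-DKO1, 109.9 and 108 for SIN3A+SIN3B-DKO2, 55.1 and 57.9 for MLL1-KO1, and 85.1 and 87.4 for MLL1-KO2. MLL1-KO1 had the lowest libraries, apart from all others, and every edited library was below both parental ones. ELOVL6 was called lower in MLL1-KO1, by 2.45-fold (log2 change -1.29, SE 0.038, adjusted p = 5.3e-10), and in MLL1-KO2, by 1.61-fold (-0.69, adjusted p = 4.7e-08). With neighbours subtracted these were -1.09 and -0.89, both called. ELOVL5, an elongase of polyunsaturated fatty acids, ranged from 124 to 168 TPM, with changes from -0.22 to 0.17 and no call.

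Levels summed over the 31 genes were 6448 and 6348 TPM in the parental libraries. The SAP30-KO1 sums were 5677 and 5567, those of SAP30-KO2 5968 and 5861, of SIN3A+SIN3B-DKO1 5539 and 5544, of SIN3A+SIN3B-DKO2 5120 and 4819, of MLL1-KO1 5179 and 5358, and of MLL1-KO2 4212 and 4236 TPM. The sums of all edited libraries were below both parental ones, and those of MLL1-KO2 were the lowest. SCD alone made 1348 TPM of the first parental library and 761 TPM of the first MLL1-KO2 library, so the sum follows SCD in part.

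**Figure D4:**
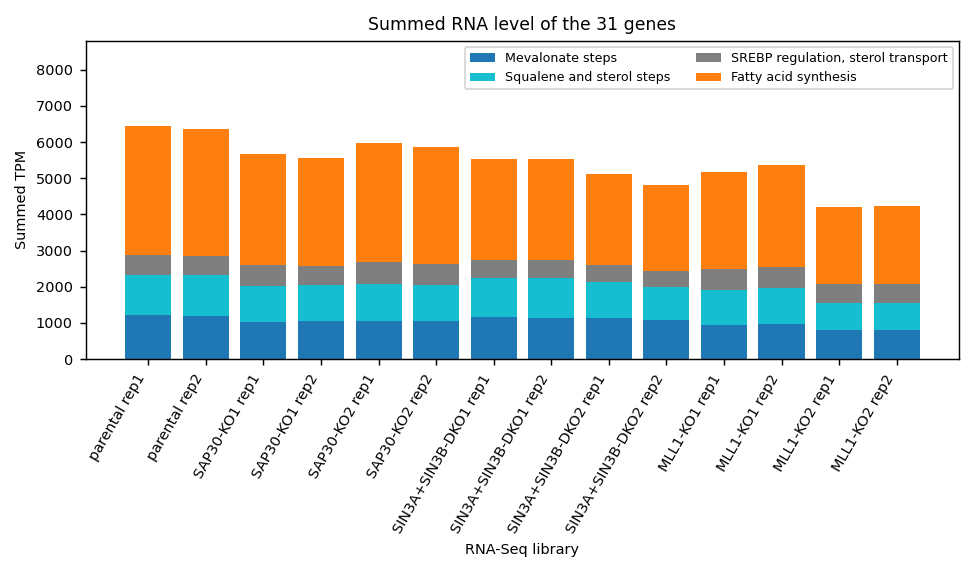
Summed TPM of the 31 genes in each of the 14 libraries, stacked by pathway step, on an axis that starts at 0. Parental bars reach 6448 and 6348 TPM, MLL1-KO2 bars 4212 and 4236, and the fatty acid genes make the largest part of every bar.

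The 2 lines of each genotype were compared directly in the same fit. SAP30-KO2 against SAP30-KO1 had 0 of the 31 genes called, where 0.148% of all genes were, and 10 genes had an unadjusted p under 0.05, with differences from -0.17 to 0.33 and adjusted p of 0.25 or more, and voom also called 0. SIN3A+SIN3B-DKO2 against SIN3A+SIN3B-DKO1 also had 0 called, where 2.23% of all genes were, with 21 genes at an unadjusted p under 0.05, differences from -0.40 to 0.21, and 0 called by voom. MLL1-KO2 against MLL1-KO1 had 3 called, or 9.7%, near the 10.4% of all genes. These were HMGCS1 (log2 difference -0.68, SE 0.038, adjusted p = 2.7e-07) and CYP51A1 (-1.12), lower in MLL1-KO2, and ELOVL6 (0.61, SE 0.038, adjusted p = 5.8e-07), higher in MLL1-KO2. For ELOVL6 the neighbour median of that difference was 0.41 and the difference with neighbours subtracted 0.20, which was not called, while for HMGCS1 and CYP51A1 the subtracted differences were -0.66 and -1.17, both called. Among the genes called in both MLL1-KO lines against parental, TM7SF2 differed between them by -0.09 (SE 0.13), SC5DL by -0.06 (SE 0.083), and MVD by -0.19 (SE 0.092), none of which was called. With neighbours subtracted SC5DL differed by -0.65 and was called, since the genes around it were higher in MLL1-KO2 than in MLL1-KO1 by a median of 0.60. Subtraction also gave lower calls to 2 genes of fatty acid synthesis, for 5 called in all (16.1%, against 7.97% of all genes).

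**Figure D5:**
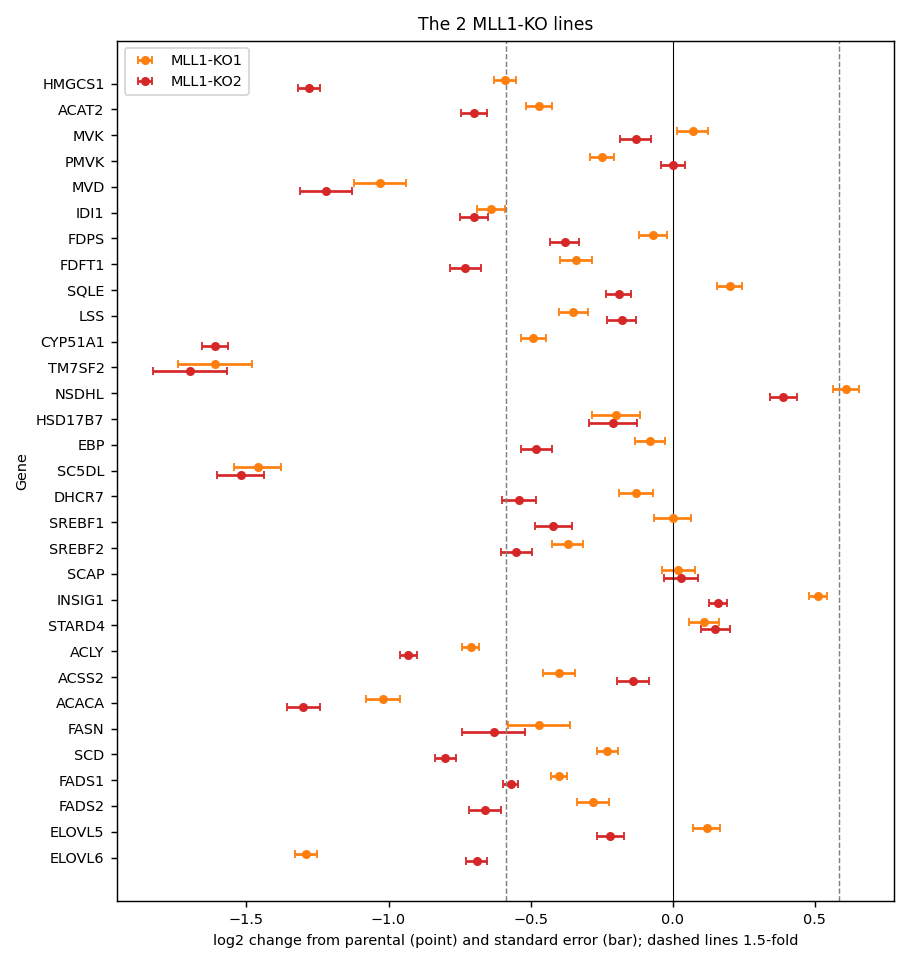
Log2 change from parental of each of the 31 genes in MLL1-KO1 (orange) and MLL1-KO2 (red), with standard errors as bars and dashed lines at 1.5-fold. HMGCS1 and CYP51A1 lie further left in MLL1-KO2, ELOVL6 lies further left in MLL1-KO1, and TM7SF2 and SC5DL lie close together.

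Genotypes were compared with each other as means of their lines, without the parental libraries. The SIN3A+SIN3B-DKO lines against the SAP30-KO lines had 2 of the 31 genes called, or 6.5%, near the 7.47% of all genes. Both were higher in the SIN3A+SIN3B-DKO lines, SC5DL by 0.68 (SE 0.058, adjusted p = 3.9e-06) and DHCR7 by 0.59 (SE 0.042, adjusted p = 1.1e-06), and the neighbour median of these differences was 0.56 at each, leaving 0.11 and 0.07. With subtraction neither was called, and FADS2 was, at -0.93. Without replicate 2 of SAP30-KO1, SAP30-KO2, or SIN3A+SIN3B-DKO1, or replicate 1 of SIN3A+SIN3B-DKO2, 1 gene was called. The MLL1-KO lines against the SAP30-KO lines had 3 called, or 9.7%, fewer than the 19.8% of all genes. All 3 were lower in the MLL1-KO lines, CYP51A1 by -0.74 (SE 0.032, adjusted p = 4.6e-09), TM7SF2 by -1.14 (SE 0.089, adjusted p = 6.3e-07), and HSD17B7 by -0.64 (SE 0.060, adjusted p = 3.2e-06). With neighbours subtracted TM7SF2 was called at -1.69, while CYP51A1 at -0.55 and HSD17B7 at -0.53 were not. Subtraction also gave lower calls to 3 genes of fatty acid synthesis, for 4 called in all (12.9%, against 16.4% of all genes). For CYP51A1 the means hide a difference between lines, since MLL1-KO1 was at 127 and 127 TPM, near the 139 to 151 TPM of the SAP30-KO libraries. The MLL1-KO lines against the SIN3A+SIN3B-DKO lines had 2 called, or 6.5%, where 19.9% of all genes were, and these were TM7SF2 at -1.16 (SE 0.089, adjusted p = 5.2e-07) and SC5DL at -0.97 (SE 0.058, adjusted p = 7.1e-08). The neighbour median at SC5DL was -0.45 here, and with neighbours subtracted its difference was -0.51 and not called, while TM7SF2 was called at -1.14. Here too subtraction gave a lower call to 1 gene of fatty acid synthesis, for 2 called in all (6.45%, against 17.5% of all genes). At a minimum of 1.5-fold the 31 genes were thus called between genotypes no more often than all genes.

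Further genes of sterol and fatty acid metabolism that are not among the 31 were taken from 2 lists. Both lists were likewise chosen with earlier results of these data known. Of 28 genes of sterol synthesis, sensing, transport, and turnover, 27 were tested, and 1, 1, 2, 4, 9, and 10 were called lower and 2, 2, 2, 1, 3, and 1 higher in SAP30-KO1, SAP30-KO2, SIN3A+SIN3B-DKO1, SIN3A+SIN3B-DKO2, MLL1-KO1, and MLL1-KO2. Of 28 genes of fatty acid synthesis, modification, activation, and use, 25 were tested, with 2, 4, 2, 1, 5, and 7 lower and 1, 3, 2, 1, 2, and 2 higher, in the same order. Both lists had their most lower calls in the MLL1-KO lines, with 33.3% and 37.0% of the sterol genes and 20% and 28% of the fatty acid genes in MLL1-KO1 and MLL1-KO2, against 16.3% and 14.9% of all genes. In the other lines, in the order above, the shares were 3.7%, 3.7%, 7.4%, and 14.8% of the sterol genes and 8.0%, 16%, 8.0%, and 4.0% of the fatty acid genes, against 7.86%, 8.12%, 8.66%, and 7.56% of all genes. Over all genes, 7.8%, 7.44%, 7.76%, 6.0%, 6.89%, and 10.2% were called higher in the 6 lines. With neighbours subtracted, lower calls were 0, 1, 1, 1, 4, and 9 of the sterol genes. For the fatty acid genes they were 1, 2, 2, 2, 4, and 8, where 5.94%, 6.0%, 7.15%, 6.9%, 11.1%, and 11.2% of all genes were.

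CPT1A, which admits fatty acids into mitochondria for oxidation, was at 68 and 65.1 TPM in parental cells, with 32.2 and 30.5 for SAP30-KO1, 27.1 and 28 for SAP30-KO2, 45.2 and 40.8 for SIN3A+SIN3B-DKO1, 43.4 and 48 for SIN3A+SIN3B-DKO2, 18.4 and 19 for MLL1-KO1, and 2.72 and 2.72 for MLL1-KO2. It was called lower in all lines but SIN3A+SIN3B-DKO2, where the change was -0.54, and the largest change was -4.38 in MLL1-KO2 (SE 0.065, adjusted p = 3.1e-12), against -1.80 in MLL1-KO1. ACSL1, which activates long-chain fatty acids, was at 40.4 and 41.9 TPM in parental cells and 14 to 29.0 TPM in the edited libraries, and was called lower in 5 lines, with -1.47 in SIN3A+SIN3B-DKO1 and -1.45 in MLL1-KO1 (SE 0.061). FADS3, next to FADS1 and FADS2, had lower calls in SAP30-KO1 and SAP30-KO2 (-0.97 and -0.92, SE 0.071, neighbour median -0.54) and in MLL1-KO1 and MLL1-KO2 (-1.54 and -1.63, neighbour medians -0.02 and -0.07), of which those in the SAP30-KO lines were lost with neighbours subtracted. ELOVL7 was called lower in SAP30-KO2, MLL1-KO1, and MLL1-KO2, with -2.34 in the last (SE 0.12, adjusted p = 2.7e-08), and the call in SAP30-KO2 was lost with neighbours subtracted.

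TMEM97, a sterol-responsive membrane protein, was at 84.5 and 82.3 TPM in parental cells, with 67.1 and 68.7 for SAP30-KO1, 66.2 and 64.1 for SAP30-KO2, 62.1 and 63.1 for SIN3A+SIN3B-DKO1, 60.7 and 63.2 for SIN3A+SIN3B-DKO2, 37.6 and 37.4 for MLL1-KO1, and 30.3 and 28.2 for MLL1-KO2. The MLL1-KO libraries lay below all others, with changes of -1.14 and -1.50 (SE 0.043), and in the other lines changes were from -0.43 to -0.29 and not called. ACAT1, the mitochondrial thiolase, was called lower in all 6 lines, from -1.22 to -0.75 (SE 0.041), with neighbour medians from -0.95 to -0.23, and with neighbours subtracted it was called in MLL1-KO2 only, at -0.62. CYP27A1, a sterol hydroxylase, was at 3.94 and 5.73 TPM in parental cells and was called lower in the SIN3A+SIN3B-DKO and MLL1-KO lines, down to -2.07 (SE 0.26, adjusted p = 7.8e-05) in SIN3A+SIN3B-DKO2. CH25H, which makes an oxysterol, was called higher in all 6 lines, from 0.76 to 1.71 (SE 0.28), at 1.32 to 3.86 TPM against 1.11 and 0.311 TPM in the parental libraries, the lower of which rests on 3 reads.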

How the data were processed

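RNA-Seq libraries of untreated cells were examined, 2 from each of parental MDA-MB-231 cells and 6 edited lines. Per the labels, total RNA was extracted with a column kit and libraries were prepared with an mRNA kit. The submitters' processing notes name hg19, FastQC 0.11.2, TopHat, and featureCounts, with no strand setting or treatment of reads that match several places given in the sources used here. The authors deposited 1 value per gene and library, called RPKM in the table's name, but each column summed to the fixed total of TPM, so the deposited values are TPM. Whole reads (tolerance 0.01) were recovered for 18519 of 18519 genes above 0, or 100.0%, and gave 18415036 to 23162682 reads per library. Replicates of a group differed by more than counting error (chi-square divided by its degrees of freedom, 1.48 to 8.08). The highest value was that of SIN3A+SIN3B-DKO2, and the next was 3.8 in SAP30-KO1, while the fit used 1 pooled spread for all groups.

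The test planned for RPKM was used unchanged. Values were fitted as log2(TPM + 0.5) with limma 3.58.1 in R 4.3.3, with 7 group means over all 14 libraries (7 residual degrees of freedom, 3.6 prior), a trend of variance with level, and a filter of 1 TPM in at least 2 libraries. Calls needed a Benjamini-Hochberg adjusted p under 0.05 over all 13540 genes and a change of 1.5-fold, and 12 comparisons were made, 6 with the shared parental libraries. Alternatives were other pseudocounts, filters, and scalings, no fold minimum, only the compared libraries, a replicate block, each library left out, neighbours subtracted, and voom on the recovered reads. The fit was tested on simulated data. Members with a call in any of the 12 comparisons, and the genes of sterol sensing, were given in full and the rest by range. From each of the other lists, the 4 genes with the largest mean absolute change over the 6 lines, among those called in at least 1 line, were named. Members and lists were chosen with earlier results of these data known. Some gene names in the table read as dates, and these rows were kept in the fit but are not named.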

Additional observations from a re-analysis of the deposited data

Results flagged for a closer look

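Direct tests of the difference between lines or genotypes in limma, with Benjamini-Hochberg adjustment over 13540 genes, singled out 7 genes. MLL1-KO2 lay below MLL1-KO1 for HMGCS1 by a log2 difference of -0.68 and for CYP51A1 by -1.12, and above it for ELOVL6 by 0.61, and these lines share the targeted gene. The MLL1-KO lines lay below the SAP30-KO lines for CYP51A1 (-0.74), TM7SF2 (-1.14), and HSD17B7 (-0.64), and below the SIN3A+SIN3B-DKO lines for TM7SF2 (-1.16) and SC5DL (-0.97). The SIN3A+SIN3B-DKO lines lay above the SAP30-KO lines for SC5DL (0.68) and DHCR7 (0.59), and for both genes the median of the surrounding genes moved by 0.56 in the same direction. For TM7SF2 the 4 MLL1-KO libraries did not overlap with any other library. Between the MLL1-KO lines 3 of the 31 genes were called, where 10.4% of all genes were. The MLL1-KO lines had 3 called against the SAP30-KO lines (19.8% of all genes) and 2 against the SIN3A+SIN3B-DKO lines (19.9%). The SIN3A+SIN3B-DKO lines had 2 called against the SAP30-KO lines (7.47%). With neighbours subtracted, only the calls of TM7SF2, and of HMGCS1 and CYP51A1 between the MLL1-KO lines, were kept. Some further genes, mostly of fatty acid synthesis, were called only after subtraction.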

How the results depend on the processing

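No change of the 31 genes in a line turned its direction past the threshold under any alternative, and the 1.5-fold minimum bore on most counts, since many changes were small and precise. With no fold minimum, 17, 16, 17, 21, 19, and 25 genes were lower and 6, 8, 6, 3, 4, and 3 higher in SAP30-KO1, SAP30-KO2, SIN3A+SIN3B-DKO1, SIN3A+SIN3B-DKO2, MLL1-KO1, and MLL1-KO2, or 54.8%, 51.6%, 54.8%, 67.7%, 61.3%, and 80.6% lower against 22.9%, 24.8%, 28.2%, 23.9%, 38.7%, and 36.2% of all genes, with 21.8% to 28.1% of all genes higher. The direct comparisons then gave 12 for SIN3A+SIN3B-DKO2 against SIN3A+SIN3B-DKO1 (38.7%, against 12.5% of all genes), 23 for MLL1-KO2 against MLL1-KO1 (74.2% against 42.1%), 22 for SIN3A+SIN3B-DKO against SAP30-KO lines (71.0% against 48.6%), 25 for MLL1-KO against SAP30-KO lines (80.6% against 67.8%), and 26 for MLL1-KO against SIN3A+SIN3B-DKO lines (83.9% against 67.8%). Without a fold minimum a call depends more on precision, and the 31 genes were not matched to all genes in level. In MLL1-KO2, 90.3% of the 31 genes were then called in either direction, against 64.2% of all genes. With chromosomal neighbours subtracted, lower calls were 1 in SAP30-KO1, 0 in SAP30-KO2, 1 in SIN3A+SIN3B-DKO1, and 2 in MLL1-KO1, higher calls were 0 in each of the 5 lines that had 1, and the direct counts were 5 for MLL1-KO2 against MLL1-KO1 (16.1% against 7.97% of all genes) and 1 for SIN3A+SIN3B-DKO against SAP30-KO lines (3.23% against 5.74%). The same 12988 genes without that correction, an alternative chosen after seeing the data, changed no call among the 186 pairs. Median-ratio scaling gave 0 higher in SAP30-KO1 and SAP30-KO2, 2 higher in MLL1-KO1, and 9 lower in SIN3A+SIN3B-DKO2. A pseudocount of 1 gave 0 higher in SAP30-KO2, and quantile normalization gave 1 for SIN3A+SIN3B-DKO against SAP30-KO lines. Leaving out each library in turn gave 0 to 1 higher in SAP30-KO2, 4 to 8 lower in SIN3A+SIN3B-DKO2, and 1 to 2 for SIN3A+SIN3B-DKO against SAP30-KO lines, with the lone library of a line assumed to vary like the other groups, and 13 to 15 lower in MLL1-KO2. Of 744 such values of a gene in a line, 725 kept their side of the threshold, 7 lost the call, and 12 gained it. Voom on the recovered reads lost 2 calls among the 186 gene and line pairs, and the pseudocount of 0.1 gained 1. Causes of these shifts other than the fold minimum were not tested.

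The replicate block, which treats libraries with the same number as pairs, changed no call among the 186 pairs, and lower calls stayed at 14 in MLL1-KO2. Nothing in the labels ties the numbers to a shared day or batch. Over 21 pairs of groups the deviations of same-numbered libraries had a mean correlation of 0.01 (from -0.07 to 0.08). A low correlation over all genes cannot show whether same-numbered libraries shared a day or batch, since an effect on few genes would not raise it. With 2 libraries per line the spread rests on the pooled estimate, and TM7SF2, at down to 56 reads in a library, is the least precise of the 31.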
